A study of Homo sapiens with 2 samples.

Results

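Histone genes were examined in RNA of the human multiple myeloma line MM.1S, a plasma-cell-like tumour line, cultured together with plasmacytoid dendritic cells (pDCs) or cultured alone. Total RNA of each culture was measured on 1 Affymetrix HG-U133 Plus 2.0 array, so no value has a replicate error and no test was possible. "Higher" and "lower" describe these arrays, with the co-culture set against MM.1S alone. Members were the probe sets that the array annotation maps to exactly 1 symbol, where that symbol starts with H1-, H2AC, H2BC, H3C or H4C or is one of H2AZ1, H2AZ2, H2AX, H3-3A and H3-3B. This gave 69 probe sets for 54 genes, of 54675 probe sets and 19775 genes in all. Of the 54 genes, 43 were replication-dependent histone genes (the testis genes H1-6 and H2BC1 of the clusters among them), 5 were variants, 2 were germline linker histones (H1-7 and H1-8), and 4 were pseudogenes or an antisense RNA (H1-9P, H2AC5P, H4C10P and H1-10-AS1). The variants were H1-10, H2AZ1, H2AZ2, H2AX and H3-3A. H3-3B is annotated only on probe sets it shares with other genes. The sources used here name neither the origin of the pDCs nor the length of culture.

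Histones package DNA. A core of H2A, H2B, H3 and H4 proteins forms the nucleosome, and the linker histone H1 binds the DNA between nucleosomes. Replication-dependent genes lie mostly in clusters, are transcribed in S phase, and make mRNAs that end in a stem-loop bound by the protein SLBP in place of a poly(A) tail. Variant genes lie outside the clusters, and most are transcribed through the cell cycle and make mainly polyadenylated mRNA. Labelling in the standard Affymetrix protocol is primed on the poly(A) tail, so these signals report mainly transcripts that carry one, and a replication-dependent gene can be active with little signal on the array.

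The promoters of replication-dependent genes carry class-specific elements, and those of 5 members are shown because they stand for the linker class, the H2B class and the variants. The windows run from 250 bases before to 50 bases after the RefSeq start (GRCh38.p14), all on the minus strand, 5′ to 3′. They lie at chr6:26056421-26056720 for H1-2, chr6:26234938-26235237 for H1-3, chr6:27146806-27147105 for H2BC12, chr1:149886633-149886932 for H2BC21 and chr4:99950226-99950525 for H2AZ1. Capitals mark matches on either strand to 4 motifs, namely the octamer ATTTGCAT, which POU factors bind in H2B promoters, the H1 box AAACACA, the CCAAT box CCAAT and the TATA box TATAAA.
H1-2: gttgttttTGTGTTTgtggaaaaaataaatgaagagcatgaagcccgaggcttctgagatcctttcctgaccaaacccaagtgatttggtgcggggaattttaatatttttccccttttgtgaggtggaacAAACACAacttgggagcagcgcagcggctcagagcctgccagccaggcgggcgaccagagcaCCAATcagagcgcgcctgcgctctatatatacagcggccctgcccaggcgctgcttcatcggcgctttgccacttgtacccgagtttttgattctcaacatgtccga
H1-3: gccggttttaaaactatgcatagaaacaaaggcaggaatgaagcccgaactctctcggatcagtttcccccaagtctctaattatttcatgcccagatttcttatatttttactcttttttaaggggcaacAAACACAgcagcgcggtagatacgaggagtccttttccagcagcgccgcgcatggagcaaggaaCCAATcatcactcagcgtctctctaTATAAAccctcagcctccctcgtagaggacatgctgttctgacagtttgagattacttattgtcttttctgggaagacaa
H2BC12: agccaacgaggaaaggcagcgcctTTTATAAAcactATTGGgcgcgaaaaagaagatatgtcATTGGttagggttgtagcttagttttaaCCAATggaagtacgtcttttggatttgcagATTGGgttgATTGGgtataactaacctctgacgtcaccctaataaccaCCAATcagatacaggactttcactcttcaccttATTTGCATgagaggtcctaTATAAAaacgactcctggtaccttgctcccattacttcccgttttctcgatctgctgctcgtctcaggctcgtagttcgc
H2BC21: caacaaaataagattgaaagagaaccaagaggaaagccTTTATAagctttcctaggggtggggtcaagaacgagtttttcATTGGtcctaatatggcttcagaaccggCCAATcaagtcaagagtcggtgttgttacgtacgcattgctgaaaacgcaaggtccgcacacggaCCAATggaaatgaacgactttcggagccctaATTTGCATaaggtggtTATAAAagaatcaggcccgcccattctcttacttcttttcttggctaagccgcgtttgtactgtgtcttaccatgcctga
H2AZ1: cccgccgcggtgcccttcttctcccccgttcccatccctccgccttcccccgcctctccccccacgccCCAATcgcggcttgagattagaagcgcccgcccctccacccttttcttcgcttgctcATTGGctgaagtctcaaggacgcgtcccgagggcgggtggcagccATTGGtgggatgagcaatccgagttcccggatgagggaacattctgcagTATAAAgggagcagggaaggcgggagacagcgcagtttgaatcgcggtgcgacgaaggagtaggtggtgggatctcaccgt

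The H1 box began at base 132 of the window in both H1-2 and H1-3, and H1-2 held a further match at base 9. The octamer began at base 202 in H2BC12 and at base 205 in H2BC21, and in both it was followed by a TATAAA match at base 221. In H2BC12 a TATAAA match overlaps one on the other strand. The H2AZ1 window held no octamer and no H1 box, but it held 3 CCAAT matches and 1 TATAAA match.

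A promoter was in the table for 40 of the replication-dependent members and all 5 variants. The H1 box was found in 6 of 6 replication-dependent H1 promoters and in none of the other replication-dependent windows, against 5.78% of 27305 promoters of all genes. The octamer was found in 10 of 13 H2B promoters (76.9%) and in 6 of 8 H2A promoters (75%), against 1.82% of all promoters. No octamer was found in the 6 H1, 6 H3 and 7 H4 windows. Some H2A and H2B genes are read in opposite directions from starts 194 to 246 bases apart, so the same match can count for both. CCAAT was in every H1, H2A, H2B and H3 window of the replication-dependent genes but in 2 of 7 H4 windows, against 35.6% of all promoters. TATAAA was in 27 of 40 replication-dependent windows (67.5%), against 12.1%. Of the 5 variant windows 4 held CCAAT and 3 held TATAAA, so these motifs were not particular to replication-dependent genes. The octamer and the H1 box were in 0 variant windows. A match is a run of letters and not a measured binding site.

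Many replication-dependent histone genes gave no signal above the floor, and most of those that did were lower in co-culture. The variants were near equal or higher. The median signal of an array served as its floor, 115.9 in co-culture and 124.0 in MM.1S alone, and any signal under it was raised to it. Where 1 array lay under the floor, the ratio is a bound, written "at least" or "or lower"; where both did, no ratio was taken. Of the 43 replication-dependent genes, 24 passed the floor on 1 array or both, against 72.9% of all genes. All 5 variants were above the floor on both arrays. Among the 24, 19 were lower in co-culture and 5 higher, against 53.3% lower among the 14408 genes of the array with a ratio. For 154 of all genes, but for 0 histone genes, the bound leaves the sign open. Their median log2 ratio, co-culture minus alone, was -0.63, against -0.04 for all genes. For the 5 variants the median was 0.09, with 4 higher and 1 lower. In bulk RNA, fewer cells of a type and less RNA per cell cannot be told apart.

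**Figure D1:**
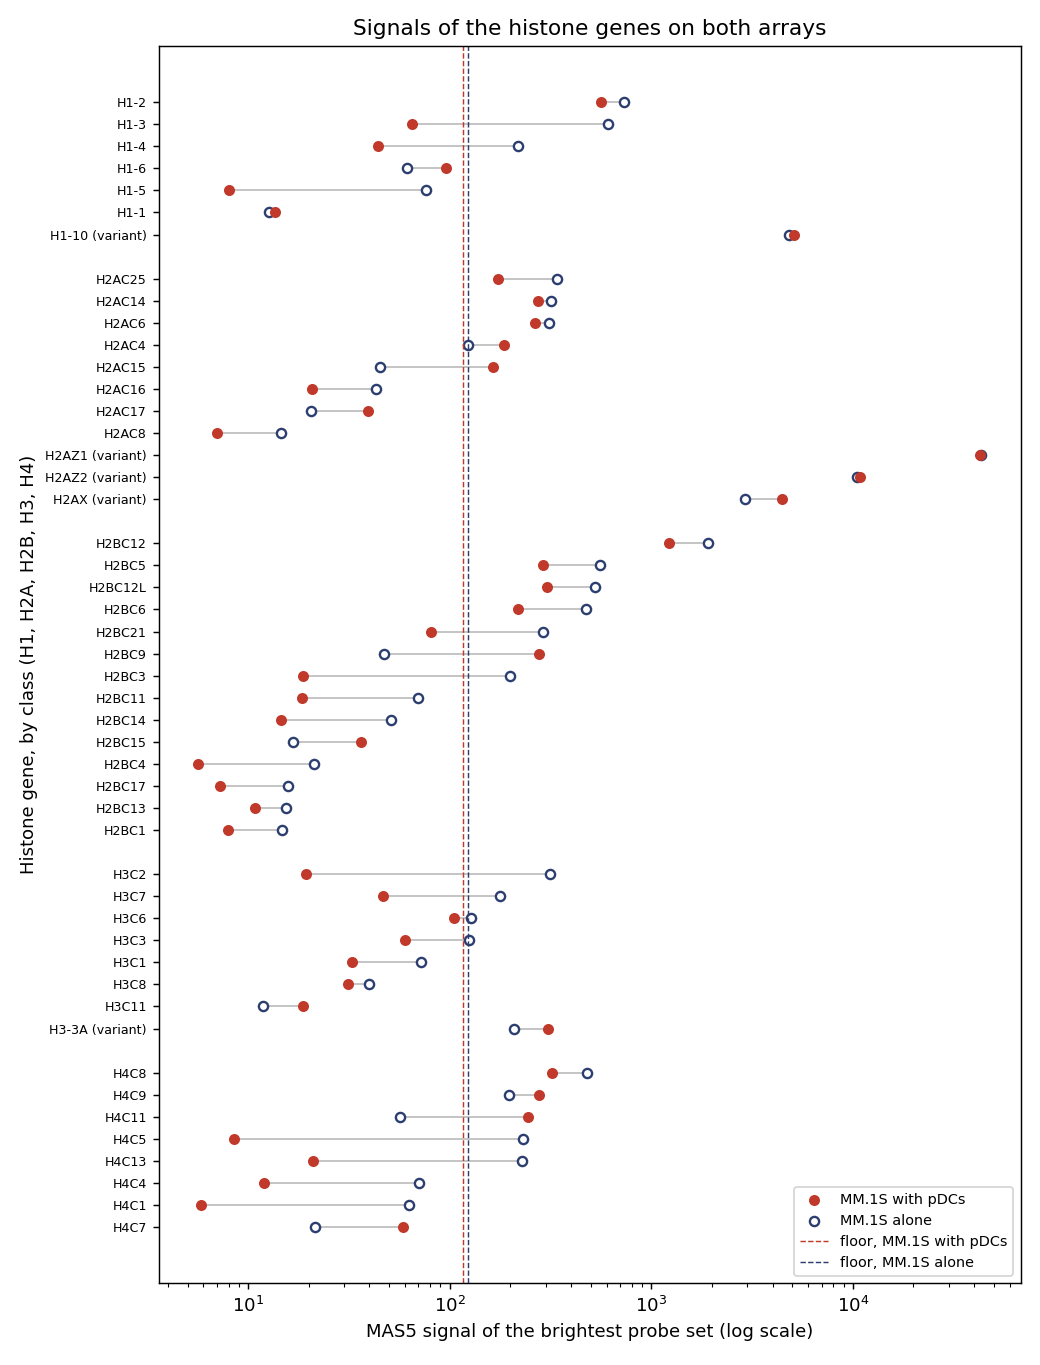
MAS5 signal (x axis, log scale) of the brightest probe set of each replication-dependent or variant histone gene (y axis, by class) in MM.1S with pDCs (filled points) and MM.1S alone (open points), with the floor of each array as a dashed line. Of 43 replication-dependent genes 19 lie below the floor on both arrays, and most others have the co-culture point to the left of the MM.1S-alone point.

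Past 2-fold, 4 of the 24 replication-dependent genes with a ratio were lower in co-culture (H1-3, H2BC21, H2BC6 and H3C2) and 1 was higher (H2BC9). The background, over the 14408 genes with a ratio, was 4.51% at least 2-fold lower and 3.16% at least 2-fold higher. The count of genes 2-fold lower ran from 1 with the floor at the 70th percentile, or without x_at and s_at probe sets, to 20 with no floor. H1-3 was the gene left under either of these. H2BC21, H2BC6 and H3C2 have no probe set of another class and drop out of the run without x_at and s_at. The share of all genes past 2-fold was not taken at these other settings, so 4.51% is not their background. Among genes above the floor on both arrays, H2BC6 was the 1 past 2-fold. Among the 10670 genes whose brighter signal lay between 125.2 and 1914, the range of the 24, the shares were 5.46% and 3.8%, and 53.0% were lower. Of the 24 genes, 4 passed the floor only in co-culture and 10 only in MM.1S alone. The background for these was 9.65% and 10.4% of all genes with a ratio, or 11.4% and 13.7% in that range of signal. In the 10 genes that passed it on both, which need no bound, 9 were lower and the median log2 ratio was -0.61. Several of these probe sets can bind transcripts of more than 1 histone gene, so the counts are not counts of independent measurements.

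Linker histone genes with a ratio were lower in co-culture, apart from the variant. H1-3, which encodes the somatic linker histone H1.3, gave 65.2 in co-culture and 612 in MM.1S alone. It was at least 5.28-fold lower, and the co-culture signal lay below the floor. H1-4, another somatic H1 gene, had 44.2 in co-culture and 219.5 alone, at least 1.89-fold lower. H1-2 was above the floor on both arrays, with 562 in co-culture and 735 alone, a log2 ratio of -0.39. These 3 genes lay on the same side, and their median was the bound of H1-4, -0.92 or lower. The other replication-dependent members of the class were below the floor on both arrays: H1-5 had 8.07 in co-culture and 76.6 alone, H1-1 had 13.6 in co-culture and 12.6 alone, and H1-6 had 95.4 in co-culture and 61.2 alone. No direction is read from signals under the floor. H1-10, the variant linker histone, whose synthesis is not limited to S phase, had 5125 in co-culture and 4817 alone, a log2 ratio of 0.09.

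H2B genes with a ratio were lower in all but 1 case. Of 14 members, 7 were above the floor on at least 1 array, 6 of them lower, with a median of -0.79, which is the bound of H2BC3. H2BC12 was above the floor on both arrays, at 1228 in co-culture and 1914 alone, a log2 ratio of -0.64. H2BC5 had 290.2 in co-culture and 556 alone on its brighter probe set, and 197 in co-culture and 321 alone on the other, log2 ratios of -0.94 and -0.70. Both of its probe sets therefore gave the same direction. H2BC21 had 80.3 in co-culture, below the floor, and 292 alone, which made it at least 2.52-fold lower. H2BC12, H2BC21 and H2BC5 are known to make longer, polyadenylated transcripts as well.

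Each of the other H2B members was read on 1 probe set. H2BC6 had 219 in co-culture and 472 alone, 2.16-fold lower. The related gene H2BC12L had 306 in co-culture and 526 alone, a log2 ratio of -0.78, and H2BC3 had 18.7 in co-culture and 200.1 alone, a log2 ratio of -0.79 or lower. H2BC9 went the other way, at 278 in co-culture against 47.2 alone, at least 2.25-fold higher. The probe sets of H2BC5, H2BC6, H2BC12L and H2BC9 are of the x_at class, which can bind related transcripts. Of the 10 H2B members whose promoter held the octamer, 5 had a ratio, 4 of them lower. Without it, 1 of 3 had a ratio, and that gene, H2BC5, was lower. H2BC1, H2BC4, H2BC11, H2BC13, H2BC14, H2BC15 and H2BC17 were below the floor on both arrays, with no signal above 69.99.

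**Figure D2:**
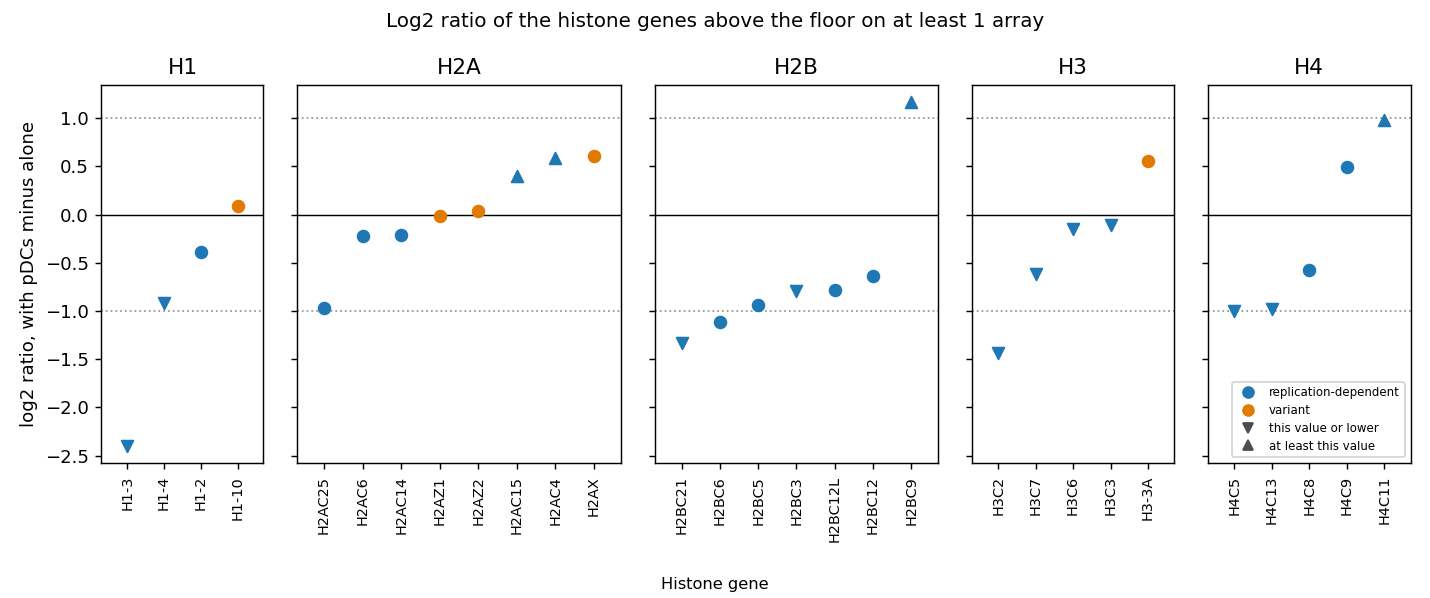
Log2 ratio, co-culture minus MM.1S alone (y axis), of each histone gene above the floor on at least 1 array (x axis), in panels by class, with replication-dependent genes in blue and variants in orange. Triangles are bounds for genes below the floor on 1 array, dotted lines mark 2-fold, and 6 of 7 H2B genes lie below 0.

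Replication-dependent H2A genes were mixed. Among 8 members, 5 had a ratio, 3 lower and 2 higher, with a median of -0.22. H2AC25, which lies outside the main cluster on chromosome 1, had 173.6 in co-culture and 339.5 alone, a log2 ratio of -0.97. Its other probe set was below the floor on both arrays, with 77.8 in co-culture and 32.2 alone. H2AC6 had 266 in co-culture and 310.3 alone, and H2AC14 had 274 in co-culture and 318 alone, both with log2 ratios of -0.22. On the other side, H2AC15 had 164 in co-culture and 45.3 alone, and H2AC4 had 187 in co-culture and 123 alone, log2 ratios of at least 0.40 and at least 0.59. The MM.1S-alone signal of H2AC4 was just below the floor. H2AC8, H2AC16 and H2AC17 were below the floor on both arrays, with no signal above 43.0.

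H3 genes of the replication-dependent kind passed the floor, where they did, in MM.1S alone but not in co-culture. Of 7 members 4 had a ratio, all lower by a bound, with a median of -0.38. H3C2 had 19.4 in co-culture and 313 alone, at least 2.70-fold lower. H3C7 had 46.8 in co-culture and 178 alone, a log2 ratio of -0.62 or lower. The values of the remaining pair were at the edge of the floor, where a bound has little room to differ from 0. H3C3 had 60.2 in co-culture and 125 alone, and H3C6 had 105 in co-culture and 128 alone. The other H3C6 probe set had 137 in co-culture and 29.2 alone, so that its bound was at least 0.14 where the brightest gave -0.14 or lower. H3C1, H3C8 and H3C11 were below the floor on both arrays, with no signal above 71.7.

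H4 genes split as well. Among 8 members 5 had a ratio, 3 lower and 2 higher, with a median of -0.58. H4C5 had 8.48 in co-culture and 232 alone, and H4C13 had 20.97 in co-culture and 228 alone, log2 ratios of -0.999 and -0.97 or lower. H4C8 was above the floor on both arrays on its brightest probe set, at 322 in co-culture and 480.0 alone (-0.58), and its other probe set had 105 in co-culture and 144 alone (-0.31 or lower). H4C9 had 277 in co-culture and 197 alone, a log2 ratio of 0.49. H4C9 overlaps H2BC12 in the RefSeq annotation; whether either probe set binds the transcript of the other gene was not tested. H4C11 had 245 in co-culture and 56.7 alone, at least 1.98-fold higher, on a probe set of the x_at class, and was just past 2-fold under each of the other scalings. H4C1, H4C4 and H4C7 were below the floor on both arrays, with no signal above 70.3.

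Each variant gene could be compared without a bound. H2AZ1, which encodes the main H2A.Z protein found at promoters, had 42973 in co-culture and 43478.5 alone on one probe set, and 41297 in co-culture and 42711 alone on the other. Its log2 ratios were -0.02 and -0.05, and the first turned positive under each other scaling (0.01 to 0.09). H2AZ2, the second H2A.Z gene, had 10812 in co-culture and 10545 alone on the brightest of 4 probe sets, a log2 ratio of 0.04. The other 3 were also higher in co-culture but by unequal amounts, at 7080.3 in co-culture against 4374 alone, 3409.7 in co-culture against 3112 alone, and 1914 in co-culture against 644 alone. Their log2 ratios were 0.70, 0.13 and 1.57, so the size for H2AZ2 depends on the probe set.

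H2AX, whose protein is phosphorylated at DNA breaks, had 4454 in co-culture and 2928 alone, 1.52-fold higher on the brightest probe set. A further probe set above the floor had 315 in co-culture and 382 alone, a log2 ratio of -0.28. The others were below the floor on both arrays, one with 40.9 in co-culture and 45.7 alone and one with 16.4 in co-culture and 98.1 alone. The direction for H2AX thus differs between its probe sets, and the mean of those above the floor was 0.16. H3-3A encodes the H3.3 variant, whose placement is not limited to S phase. On the probe set annotated to it alone it had 307 in co-culture and 209 alone, a log2 ratio of 0.55. A further 8 probe sets are annotated to both H3.3 genes together with a pseudogene or a microRNA gene, with signals from 1029 to 51418. Of these 6 were higher in co-culture and 2 lower, with log2 ratios from -0.16 to 0.33 and a median of 0.11.

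**Figure D3:**
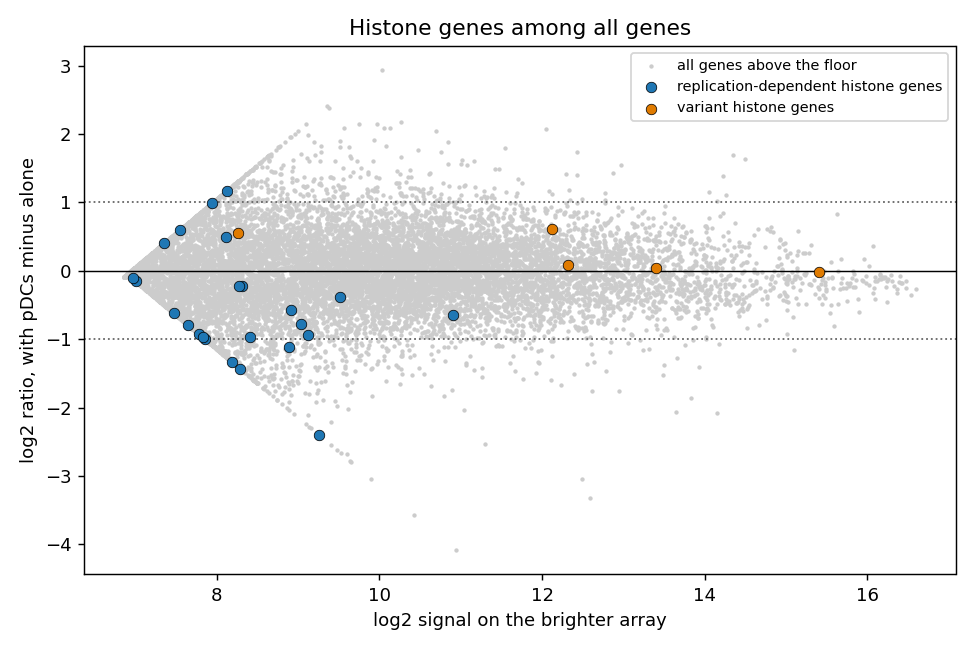
Log2 ratio, co-culture minus MM.1S alone (y axis), against the log2 signal on the brighter array (x axis) for all 14408 genes with a ratio (grey), with replication-dependent histone genes in blue and variants in orange. Points on the diagonal edges are bounds of genes below the floor on 1 array, and the brighter signals of the replication-dependent genes run from 125.2 to 1914.

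Probe sets annotated to several replication-dependent histone genes fall outside the rule and showed less of a difference. There were 20, of which 10 had a ratio, 6 lower and 4 higher, with a median of -0.03. Of those shared by H2B genes, one was lower and the other near equal: one had 238 in co-culture and 513 alone (-1.11), and the other 172 in co-culture and 174 alone (-0.01). Of those annotated to 14 H4 genes each, one had 1130.2 in co-culture and 791 alone, a log2 ratio of 0.51, and another had 219 in co-culture and 186 alone (0.23). One more had 99.4 in co-culture and 130.5 alone (-0.17 or lower). Neither single-gene nor shared probe sets gave the H4 class 1 direction. For H2A, 3 shared probe sets had ratios from -0.04 to 0.44. Among single-gene probe sets of the replication-dependent genes, those of the plain at class gave 12 lower and 4 higher, those of the s_at class 4 lower and 0 higher, and those of the x_at class 5 lower and 2 higher.

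Gene structure and position gave the following counts. Among replication-dependent core histone genes, 4 of 5 with a RefSeq span over 1000 bases (2224 to 13229 bases) were above the floor on at least 1 array, as were 17 of 32 shorter ones (386 to 569 bases). On chromosome 6, which holds 42 of the 54 members, 21 had a ratio, with a median of -0.58. The 3 members on chromosome 1 had a median of -0.97, with H2AC25 and H2BC21 lower and H3-3A higher. Of 5 pairs of members read in opposite directions from starts within 1000 bases, 1 had a ratio for both genes, H3C7 with -0.62 or lower and H2BC9 with at least 1.17. The pseudogenes, the antisense RNA and the germline H1 genes were below the floor on both arrays on their brightest probe sets. One other H1-7 probe set had 149 in co-culture and 6.88 alone, a log2 ratio of at least 0.26.

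Genes that act in transcription and processing of histone mRNA lay on both sides. Of 25 listed, 23 were measured, 13 higher and 10 lower, with a median log2 ratio of 0.21 that turned to -0.12 without x_at and s_at probe sets. SLBP, which binds the stem-loop of replication-dependent histone mRNA, had 8798 in co-culture and 5426 alone, 1.62-fold higher on its single probe set above the floor. NPAT, the coactivator of histone genes at S phase entry, had 1103 in co-culture and 1220 alone, a log2 ratio of -0.15, with 0.05 on its other probe set. Of the 23, 4 were at least 2-fold higher and none 2-fold lower, against 3.16% and 4.51% of all genes with a ratio. The helicase gene DHX9 had 4349 in co-culture and 1947 alone (2.23-fold). UPF1, an RNA helicase that acts with SLBP in histone mRNA decay, had 796 in co-culture and 248 alone (3.21-fold). CDK2, which phosphorylates NPAT, had 1544 in co-culture and 702 alone (2.20-fold). The cap-binding gene NCBP1 had 1257 in co-culture and 589 alone (2.13-fold). The other probe sets of UPF1, CDK2 and NCBP1 had log2 ratios of -0.69, -0.69 and -0.03, so these 3 differ in direction between probe sets. With the mean over the probe sets above the floor these 3 were no longer past 2-fold, at 0.50 for UPF1, 0.22 for CDK2 and 0.53 for NCBP1. DHX9 has no other probe set above the floor.

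Histone chaperones and exchange factors were measured for 30 of 30 listed genes, 20 higher and 10 lower, with a median of 0.23 and none past 2-fold. NAP1L1, a chaperone of H2A and H2B, had 22349 in co-culture and 18253 alone (0.29). ANP32E, which removes H2A.Z, had 16205 in co-culture and 14449 alone (0.17), but the remaining probe sets that passed the floor gave -0.85 to -0.20. Of 13 listed variants outside the rule, 6 had a probe set and 4 a ratio. MACROH2A1, the macroH2A variant of silent chromatin, had 18252 in co-culture and 9007 alone, 2.03-fold higher, with other probe sets from -0.50 to 2.01 and 0.66 for the mean over those above the floor. H3-4, a testis H3 gene, had 40.6 in co-culture and 250.5 alone, at least 2.16-fold lower.

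Genes of DNA replication, with which replication-dependent histone genes are normally transcribed, lay on the other side. Of 23 measured S phase genes 18 were higher and 5 lower, against 6728 higher of 14408 for all genes, with a list median of 0.25. UHRF1, which carries DNA methylation through replication, had 5510.4 in co-culture and 2079 alone (2.65-fold) and was the single member past 2-fold. In the list of G2 and mitosis 14 of 14 were higher on their brightest probe sets, with a median of 0.67. The other probe set of CCNB2 above the floor gave -0.29, and the other 3 of CDK1 ran from -0.26 to 1.16. With the mean over the probe sets above the floor the list median was 0.75. CENPE, a kinetochore motor, had 1660.1 in co-culture and 822 alone (2.02-fold). Quantile or loess scaling put it slightly below 2-fold. Whether these values and those of the histone genes are linked was not tested.

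**Figure D4:**
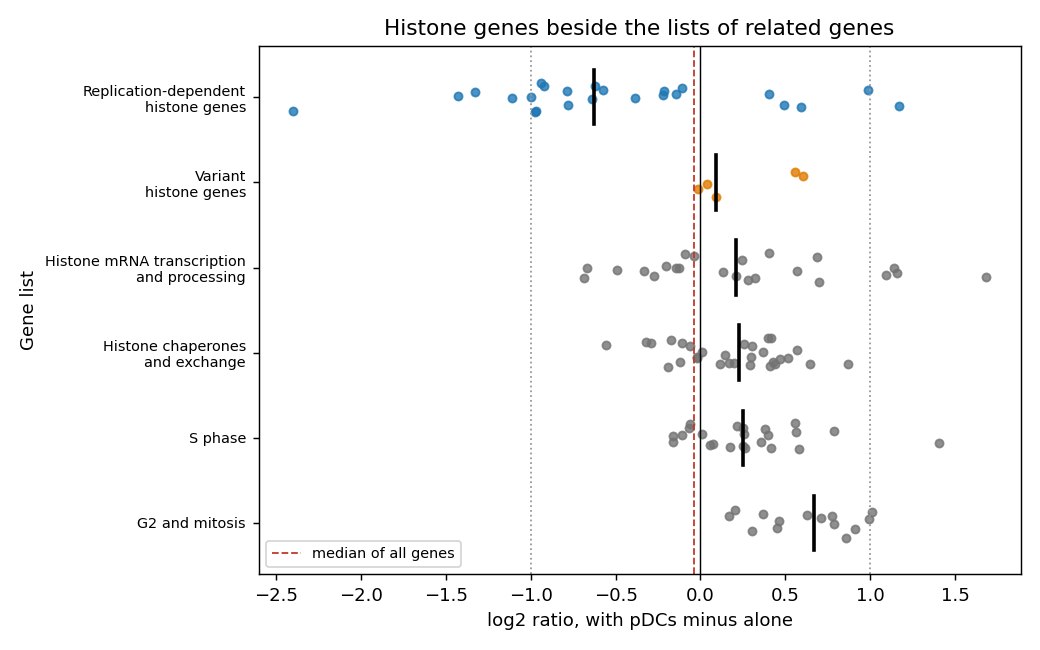
Log2 ratio, co-culture minus MM.1S alone (x axis), of the single genes (points) and their median (black bar) for replication-dependent histone genes, variant histone genes and 4 lists of related genes (y axis), with bounds drawn at their value. The medians are -0.63, 0.09, 0.21, 0.23, 0.25 and 0.67 from top to bottom, and the dashed line marks the median of all genes at -0.04.

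Other properties of the arrays moved with the groups. The 3′ to 5′ ratio of the ACTB control probe sets was 8.09 in co-culture and 19.5 alone, and that of GAPDH was 2.46 in co-culture and 3.07 alone. Plasma cell markers were above the floor on both arrays for 8 of 8 genes, 3 higher and 5 lower, with log2 ratios from -0.67 (MZB1) to 0.83 (JCHAIN). SDC1 had 10177 in co-culture and 10503 alone. Of 8 pDC markers 4 passed the floor in co-culture and 5 did so alone, with summed signals of 5313 in co-culture and 6762 alone. TCF4 (3569 in co-culture and 4400 alone) and IRF7 (1073 in co-culture and 1303 alone) gave most of both sums. Of the 5 with a ratio LILRA4 was higher (306 in co-culture and 256 alone). The other 4 were lower, among them GZMB (174 in co-culture and 604 alone). The pDC-defining CLEC4C was below the floor on both (61.4 in co-culture and 6.43 alone). Of 6 monocyte markers with a ratio 5 were lower, 4 of them by a bound, and the sign of CSF1R was open, with summed signals of 357 in co-culture and 1483 alone, and 2 passed the floor in co-culture against 5 alone. Of 7 measured T cell markers 1 was above the floor on either array, with summed signals of 337 in co-culture and 358 alone. The sources used here do not say whether pDCs were removed before RNA was extracted. The part of these differences in the histone values was not tested.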

How the data were processed

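Biotin-labelled RNA of MM.1S cells with pDCs and alone was hybridised to HG-U133 Plus 2.0 arrays, 1 per group, grouped by sample title. The deposited intensity values, linear and 1 for each probe set, come from MAS5, per the submitters' processing notes. The sources used here name neither its version nor detection calls. Both arrays were scaled, as the values show, to a mean of 500.1 after trimming 2% at each end, so a shift shared by most transcripts cannot be seen. Precision is limited by the number of arrays.

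Of 54675 probe sets, 41091 had 1 gene symbol in the platform annotation, and 0 of these symbols needed an update against RefSeq (GRCh38.p14, which also gave promoters and neighbours). Each gene was represented by its brightest probe set (mean of the log2 signals). Signals under the median of an array were set to it. Bacterial control probe sets above this floor numbered 0 of 27 in co-culture and 2 of 27 alone. A 2-fold difference was a threshold of size. The members and lists were chosen with earlier results of these data known.

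Named were histone genes past 2-fold, the 3 brightest of each class, all variants, and genes with probe sets past 0.5 (log2) in opposite directions. Of each related list, up to 4 genes past 2-fold or else the 2 brightest were named, and always SLBP and NPAT. Other histone genes were named to account for each class, after their values were seen, as were the markers.

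Alternatives were median centring, quantile normalization, loess (span 0.3), no floor or a floor at the 30th or 70th percentile, the mean of a gene's probe sets, no x_at and s_at probe sets, and 1.5-fold and 3-fold. A run on genes above the floor on both arrays, the mean over the probe sets above the floor, and the background at matching signal, were chosen after seeing the data. The calculation was tested on simulated arrays. Loess came from statsmodels 0.14.6, figures from matplotlib 3.10.9, and tables from pandas 2.3.3 and numpy 2.4.6 under Python 3.11.15.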

Additional observations from a re-analysis of the deposited data

How the results depend on the processing

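The median log2 ratio of replication-dependent histone genes stayed negative, from -0.94 with no floor to -0.48 with the floor at the 70th percentile. That of variants lay between 0.09 and 0.16, except without x_at and s_at probe sets, where it was 0.34. In that run only 2 variants had a ratio, H2AZ1 at -0.02 and H2AZ2 at 0.70. The class medians given next include the variants that have a ratio in the run. With the settings of the report these medians were -0.65 (H1), 0.0096 (H2A), -0.79 (H2B), -0.14 (H3) and -0.58 (H4), with -0.39 over all histone genes. The 2-fold counts run over all 54 members. With the 30th percentile floor the medians were -0.55 (all histone genes) and -0.90 (H3), with 10 genes at least 2-fold lower and 4 higher. Of those 4 higher, 3 were replication-dependent. At the 70th percentile floor they were -0.17 (all), -0.39 (H1), -0.073 (H2A, a turned sign) and -0.024 (H3), with 1 lower and 0 higher. With no floor they were -0.39 (H1), -0.017 (H2A, turned), -1.03 (H2B), -0.70 (H3) and -1.57 (H4), with 20 lower and 7 higher. Of those 7 higher, 5 were replication-dependent. Without x_at and s_at probe sets, a run that drops H1-10, H2AX and H3-3A, they were -0.58 (all), -0.92 (H1), 0.40 (H2A) and -0.78 (H4). In it 1 gene was lower and 0 higher. The run also keeps only 33 of the 43 replication-dependent genes. H2BC21, H3C2, H2BC6 and H2BC9, past 2-fold with the settings of the report, have no other probe set and drop out of it. With genes above the floor on both arrays they were -0.22 (all), -0.15 (H1), -0.12 (H2A, turned), 0.55 (H3, the single gene H3-3A) and -0.043 (H4), with 1 lower and 0 higher. The mean over all probe sets, signals under the floor included, gave H2A -0.093 (turned), the value of H2AC25 in that run. There H2AX moved from 0.60 to -0.60, and H2AC15 had no ratio. Over the probe sets above the floor H2A was 0.065 and H4 -0.44. The 2-fold higher count was 2 under each other scaling, where H4C11 passed 2-fold. At 1.5-fold 13 genes were lower and 4 higher, and at 3-fold 1 and 0. The share of all genes was taken only with the settings of the report, so counts under other settings have no background. The fall in counts at higher floors follows from fewer genes with a ratio and bounds nearer 0. The fall without x_at and s_at probe sets follows from the genes that this run drops. With no floor 43 replication-dependent genes had a ratio, against 24, and no ratio was held to a bound. The cause of the other shifts was not tested.

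H2AZ1 was positive under each other scaling (0.01, 0.08 and 0.09), so its direction is not settled. H2AX was -0.60 with the mean over all its probe sets, which includes signals under the floor, and 0.16 over those above it. Among lists, histone mRNA processing turned to -0.12 without x_at and s_at probe sets, chaperones to -0.011 with the mean over all probe sets (0.14 over those above the floor), and variants outside the rule to -0.32, -0.29 and -0.36 with a lower floor, none, and without x_at and s_at. CDK2 was -0.44 with the mean over all probe sets, signals under the floor included, and 0.22 over those above it, and NCBP1 was -0.032 without x_at and s_at. Most histone signals lay near the floor, and 1 array per group left no replicate to leave out. No paired analysis was possible because each group holds 1 array.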
